A study of Arabidopsis thaliana with 6 samples.

Results

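The genes described here are 6 Arabidopsis loci of the endoplasmic reticulum (ER) stress response, taken by locus and by no rule on measured values: BZIP17 (AT2G40950), BZIP28 (AT3G10800), BZIP60 (AT1G42990), the calreticulin gene CRT1B (AT1G09210), ERDJ3B (AT3G62600) and DER1 (AT4G29330). Earlier results of these data were known when they were chosen. These genes are 6 of the 13286 that had a named probe set of their own. They are read by 7 of the 22746 probe sets tested, since DER1 had 2. Transcript levels were measured on 6 Affymetrix arrays, 2 per genotype, from whole seedlings 5 days old. The groups were the wild type (WT), a line labelled atvap mutant, and TaVAPOE, which is the wild type with overexpressed TaVAP. All seedlings were grown on medium under 16 h of light and 8 h of dark, and no group received a stress or other treatment. The labels name no accession, no mutated locus and no promoter for the transgene, and they do not say how many plants or lines went into an array. Neither the mutation nor the transgene was checked in the values.

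When unfolded proteins gather in the ER, plants raise the transcription of genes for chaperones and for the disposal of faulty proteins, a programme called the unfolded protein response. BZIP28 and BZIP17 are transcription factors held in the ER membrane. Under stress they move to the Golgi, where the proteases S1P and S2P cut them free to enter the nucleus. BZIP60 is the transcription factor of the other arm: the ER membrane enzyme IRE1 splices its mRNA outside the nucleus, and the spliced form encodes the factor that enters the nucleus. The other 3 genes act in the ER itself. CRT1B encodes a calcium-binding lectin chaperone that helps glycoproteins fold, ERDJ3B a J-domain partner of the ER chaperone BiP, and DER1 a derlin, a membrane protein of ER-associated degradation. DER1 is thus a quality control gene rather than a chaperone gene. By its title the series asked about TaVAP in stress tolerance, and VAP proteins are themselves residents of the ER membrane. The array gave a single value for BZIP60 transcript, and its spliced and unspliced forms were not separated here.

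All values are the deposited probe set values in log units, whose base is not stated, so differences are given in log units. The 99th percentile of an array lay between 7.65 and 7.78 on 4 arrays, but at 5.78 on wild-type replicate 1 and 4.84 on mutant replicate 1. Across probe sets the 4 arrays correlated at Pearson r between 0.935 and 0.979, whereas wild-type replicate 1 reached at most 0.526 and mutant replicate 1 at most 0.194 with any other array. These 2 arrays are called discordant below and the other 4 concordant, and each comparison is given with and without them. Whether these arrays hold what their labels state, or are of lower quality, was not tested, so the 6-array means of the wild type and the mutant carry that doubt. Of 18 marker genes listed to check the whole-seedling label, 6 had a named probe set of their own. On the concordant arrays the 4 measured green-tissue genes read 6.34 to 9.55, the root hair gene EXPA7 read 1.69 to 3.12 and a pollen-type gene, AT5G45880, read 1.92 to 2.59. Wild-type replicate 1 read RCA, LHCB4.1 and PSAE1 at 9.03, 9.09 and 9.04 and LHCB4.2 at 3.94, whereas mutant replicate 1 read these genes at 4.07, 2.62, 4.15 and 2.32. EXPA7 was at 1.76 and 3.79 on these arrays, and AT5G45880 at 3.05 and 2.46. No seed marker was analysed here. In bulk seedlings, fewer cells of a type and less RNA per cell cannot be told apart.

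Among the regulators, BZIP60 was the one whose TaVAPOE values exceeded those of every other array. It read 6.96 and 6.69 on the TaVAPOE arrays, replicate 1 first here and below. The wild-type arrays gave 3.89 and 5.98, the mutant arrays 2.44 and 5.94. The concordant wild-type and mutant arrays were within 0.04 log units of each other (-0.039, mutant minus wild type). Placed among all probe sets of its own array, BZIP60 stood above 97.6% and 96.7% of them in TaVAPOE, above 94.2% on wild-type replicate 2 and above 93.3% on mutant replicate 2. On the discordant arrays these shares were 88.2% (wild type) and 28.4% (mutant).

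For the membrane-held regulators TaVAPOE did not stand above all other arrays. BZIP28 read 3.32 and 5.26 on the wild-type arrays, 2.44 and 5.54 on those of the mutant, and 5.21 and 5.36 on those of TaVAPOE. Its TaVAPOE values enclosed the concordant wild-type value and lay below the concordant mutant value. BZIP17 read 1.65 and 3.51 on the wild-type arrays, 1.38 and 3.91 on those of the mutant, and 3.90 and 3.79 on those of TaVAPOE. TaVAPOE was above both wild-type arrays for BZIP17 but not above mutant replicate 2. The BZIP17 values on both discordant arrays were below 1.66, the 20th percentile of all values, and were the only 2 of the members' 36 values on their main probe sets that were this low.

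**Figure D1:**
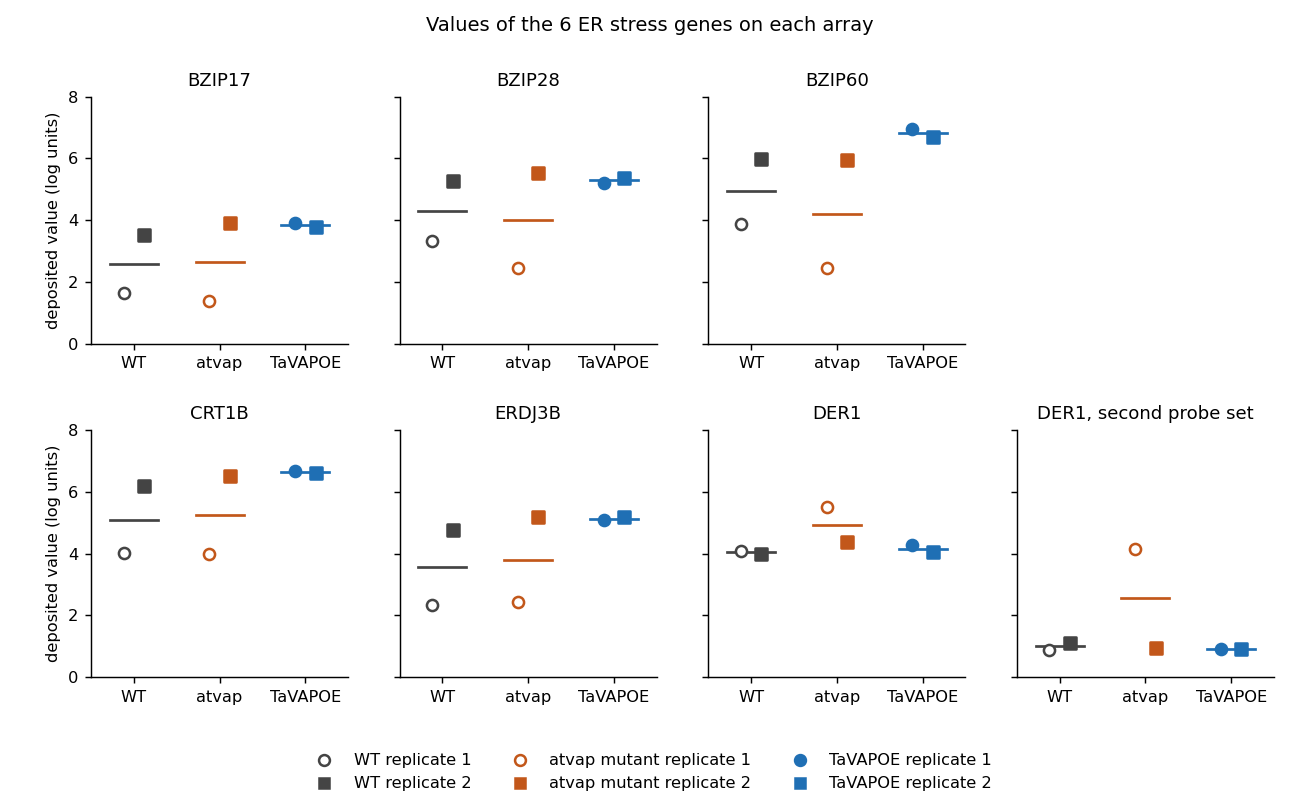
Deposited value in log units (vertical axis) of each gene on each array, by genotype; circles are replicate 1, squares replicate 2, open symbols the 2 discordant arrays, and short lines the mean of the 2 arrays of a genotype. BZIP60 reads 6.96 and 6.69 in TaVAPOE against 5.98 and 5.94 on the concordant wild-type and mutant arrays, and the second DER1 probe set is low everywhere except at 4.16 on mutant replicate 1.

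Among the genes that act in the ER, CRT1B read 4.03 and 6.18 on the wild-type arrays, 3.995 and 6.52 on those of the mutant, and 6.66 and 6.62 on those of TaVAPOE. Both TaVAPOE values were the highest of the 6, with mutant replicate 2 close below them. TaVAPOE thus exceeded the other 4 arrays for BZIP60 and CRT1B, 2 of the 6 genes, where 13.6% of all probe sets did so. ERDJ3B read 2.33 and 4.77 on the wild-type arrays, 2.44 and 5.17 on those of the mutant, and 5.09 and 5.17 on those of TaVAPOE. The concordant mutant array lay within the TaVAPOE pair for ERDJ3B, and all 3 were above both wild-type arrays. DER1 read 4.08 and 3.997 on the wild-type arrays, 5.50 and 4.37 on those of the mutant, and 4.27 and 4.04 on those of TaVAPOE. It was the only one of the 6 that did not read lower on wild-type replicate 1 than on replicate 2, and on mutant replicate 1 it was higher than anywhere else, above 99.8% of the probe sets of that array. Position within an array gave a different picture for CRT1B, which stood above 90.5% and 93.5% of the probe sets on the discordant wild-type and mutant arrays and above 95.2% to 96.7% on the others. DER1 stood above 91.2% on wild-type replicate 1. The second DER1 probe set read 0.89 and 1.09 on the wild-type arrays, 4.16 and 0.94 on those of the mutant, and 0.91 on both TaVAPOE arrays. That probe set was dim on 5 arrays, so only its high value on mutant replicate 1 goes with the first.

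Between TaVAPOE and the wild type all 6 genes were higher in TaVAPOE by the group means, where 51.6% of all probe sets were. Their median was 1.402 log units against 0.03 over all probe sets, which were not matched to these genes by level. The 99th percentile was 5.78 on wild-type replicate 1 and 7.65 on replicate 2. What that narrower range adds to the differences over 6 arrays was not tested. None of the 6 genes passed the test. Over 6 arrays BZIP60 differed by 1.89 ± 1.27 log units (limma moderated standard error, 95% interval -1.24 to 5.02, adjusted p = 0.870, n = 2 arrays per genotype). ERDJ3B differed by 1.58 ± 1.15, CRT1B by 1.54 ± 1.06, BZIP17 by 1.26 ± 1.02, BZIP28 by 0.998 ± 1.15 and DER1 by 0.12 ± 0.55. The intervals are wide: that of BZIP28 ran from -1.84 to 3.84 and that of DER1 from -1.23 to 1.47. Of the 6 genes 0 passed at an adjusted p under 0.05, where 0% of all probe sets did, and 0 had an unadjusted p under 0.05, where 2.14% did. No other tool was run. For BZIP17, BZIP60, CRT1B and ERDJ3B both TaVAPOE arrays exceeded both wild-type arrays, 4 of the 6 genes, where 25.3% of all probe sets did so in that direction. For these 4 genes the difference of wild-type replicate 1 from replicate 2 ran from -2.44 to -1.87 log units.

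On the 4 concordant arrays the differences from the wild type were smaller for 5 of the 6 genes, all but DER1. The median over the 6 genes was 0.34 log units, against -0.006 over all probe sets. BZIP60 differed by 0.85 ± 0.22, which would be 1.80-fold if the log base were 2 (95% interval 0.26 to 1.43, unadjusted p = 0.015, limma adjusted p = 0.145). Over the 16 alternative settings its adjusted p ranged from 0.126 to 1. BZIP60, BZIP17, CRT1B and ERDJ3B were each higher in TaVAPOE in all 16, though several of these settings change the test and not the difference. Among all probe sets 4.88% had a larger positive difference than BZIP60 in this fit. CRT1B differed by 0.46 ± 0.19 (interval -0.04 to 0.97), ERDJ3B by 0.36 ± 0.19, BZIP17 by 0.33 ± 0.19, DER1 by 0.16 ± 0.21 and BZIP28 by 0.03 ± 0.20 (interval -0.50 to 0.56). None of the 6 passed, while 0.0396% of all probe sets did, and 1 of 6 had an unadjusted p under 0.05, where 21.1% of all probe sets did. That share is near the background and is not a result about these genes. The fit rests on 1 wild-type array, and its spread comes from the TaVAPOE pair alone, which differed by a median of 0.191 log units against 0.962 for the wild-type pair. Quantile normalization of the 4 arrays was chosen after seeing the data. It gave 0.772 for BZIP60, 0.390 for CRT1B, 0.192 for BZIP17, 0.191 for ERDJ3B, 0.001 for DER1 and -0.090 for BZIP28.

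**Figure D2:**
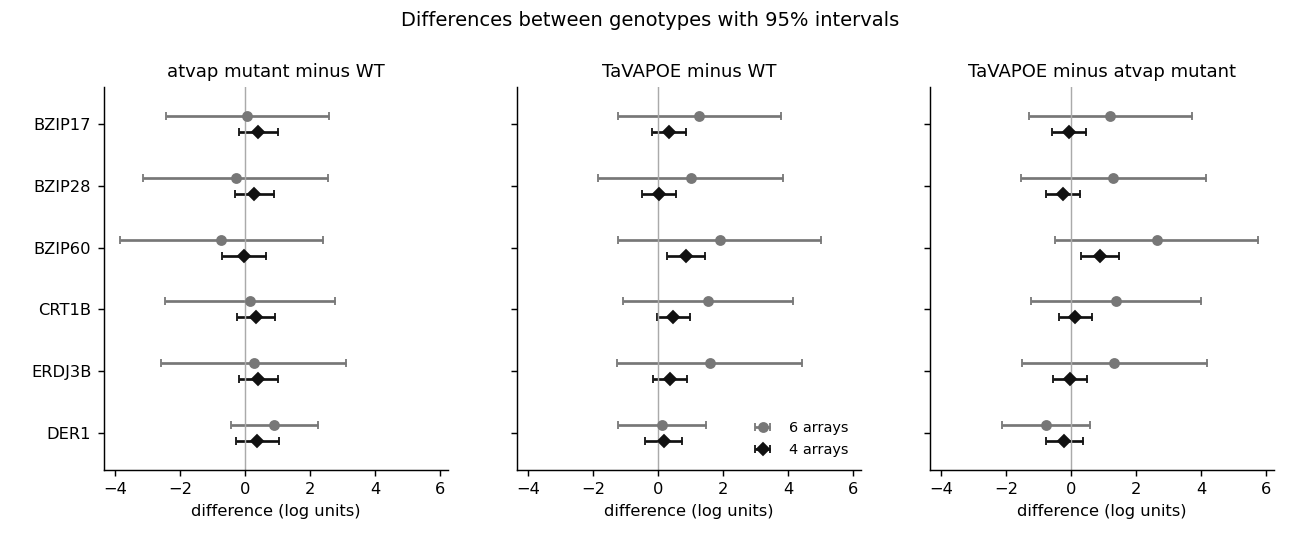
Difference between genotypes in log units (horizontal axis) for each gene in the 3 comparisons, with 95% intervals from limma; grey circles are the fit to 6 arrays and black diamonds the fit to the 4 concordant arrays. Every 6-array interval includes 0, and with 4 arrays the interval excludes 0 for BZIP60 against the wild type (0.26 to 1.43) and against the mutant (0.30 to 1.47), before adjustment for the number of probe sets.

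When the atvap mutant was compared with the wild type, the differences over 6 arrays had both signs. DER1 differed by 0.90 ± 0.55, ERDJ3B by 0.26 ± 1.15, CRT1B by 0.16 ± 1.06 and BZIP17 by 0.06 ± 1.02, while BZIP60 differed by -0.74 ± 1.27 and BZIP28 by -0.30 ± 1.15, all with a limma adjusted p of 0.9999. Of the 6 genes 0 passed, as did 0% of all probe sets, and 0 had an unadjusted p under 0.05, where 0.958% of all did. DER1 alone had both mutant arrays above both wild-type arrays, 1 of 6 where 10.7% of all probe sets did. Its second probe set differed by 1.56 ± 1.04. Both rested on mutant replicate 1: over the concordant arrays the first probe set differed by 0.37 ± 0.24 and the second by -0.15 ± 0.22.

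With the concordant arrays alone, the other genes read slightly higher in the mutant than in the wild type and BZIP60 did not. ERDJ3B differed by 0.40 ± 0.22, BZIP17 by 0.40 ± 0.22, CRT1B by 0.34 ± 0.22 and BZIP28 by 0.28 ± 0.23, with intervals that all include 0, and BZIP60 differed by -0.04 ± 0.25 (interval -0.71 to 0.63). The median over the 6 genes was 0.35 log units, against 0.01 over all probe sets. These are single arrays on each side. None of the 6 passed, as did 0% of all probe sets, and none had an unadjusted p under 0.05, where 13% of all did. With quantile normalization of the 4 arrays, chosen after seeing the data, these 4 differences and that of DER1 were between 0.145 and 0.262.

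Between TaVAPOE and the mutant, 5 of the 6 genes were higher in TaVAPOE over 6 arrays, where 47.5% of all probe sets were, and DER1 was lower. BZIP60 differed by 2.63 ± 1.27 log units (95% interval -0.50 to 5.76, limma adjusted p = 0.865). CRT1B differed by 1.39 ± 1.06, ERDJ3B by 1.32 ± 1.15, BZIP28 by 1.295 ± 1.15, BZIP17 by 1.20 ± 1.02 and DER1 by -0.78 ± 0.55. None passed, as did 0% of all probe sets, and none had an unadjusted p under 0.05, where 1.31% did. TaVAPOE lay above both mutant arrays for BZIP60 and CRT1B, 2 of 6 where 19.8% of all probe sets did, and below both for DER1, 1 of 6 where 19.7% did.

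Leaving out the discordant arrays turned 3 of these differences. BZIP28 then differed by -0.25 ± 0.20, BZIP17 by -0.07 ± 0.19 and ERDJ3B by -0.04 ± 0.19, and DER1 by -0.21 ± 0.21, so the median over the 6 genes went from 1.31 to -0.05. BZIP60 kept its direction at 0.89 ± 0.22 (interval 0.30 to 1.47, unadjusted p = 0.0127, limma adjusted p = 0.223), and 2.64% of all probe sets had a larger positive difference. Over the 16 alternative settings its adjusted p ranged from 0.117 to 1, and BZIP60, CRT1B and DER1 each had the same direction in all 16. Several of these settings change the test and not the difference. CRT1B differed by 0.12 ± 0.19. None of the 6 passed, while 0.0659% of all probe sets did, and 1 of 6 had an unadjusted p under 0.05, where 14.8% did. This comparison and that with the wild type share the TaVAPOE arrays.

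Set side by side, the 3 regulators and the 3 ER genes had like medians in TaVAPOE. Against the wild type the regulators had a median of 1.26 log units over 6 arrays and 0.33 over 4, and the ER genes 1.54 and 0.36. Against the mutant the regulators had 1.295 and -0.07, and the ER genes 1.32 and -0.04. Between mutant and wild type the medians were -0.30 and 0.28 for the regulators and 0.26 and 0.37 for the ER genes. Over 4 arrays the regulators ran from 0.03 to 0.85 in TaVAPOE against the wild type, and the ER genes from 0.16 to 0.46, ranges that overlap. Between mutant and wild type over 4 arrays the regulators ran from -0.04 to 0.40 and the ER genes from 0.34 to 0.40. With 3 genes to a class these medians are descriptions.

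Differences between 2 genes on the same array do not depend on a shift that an array gives to all its probe sets, so BZIP60 was also set against each of the other genes within each array. This measure was chosen after the values were seen. It does not remove a narrower range of values on an array. The discordant wild-type and mutant arrays had medians of 2.836 and 2.88, against 2.738 to 2.761 on the other arrays. Their 99th percentiles were 5.78 and 4.84, against 7.65 to 7.78. BZIP60 minus BZIP28 was 1.74 and 1.33 log units in TaVAPOE, 0.57 and 0.72 on wild-type arrays and -0.001 and 0.40 on mutant arrays. On mutant replicate 1 BZIP28 read a value that 397 probe sets shared, so the difference of -0.001 there rests on a tied value. BZIP60 minus BZIP17 was 3.06 and 2.91 in TaVAPOE, 2.24 and 2.46 on wild-type arrays and 1.07 and 2.03 on mutant arrays. For both, the TaVAPOE arrays were the highest of all 6, the discordant ones included.

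The same held against CRT1B, with 0.29 and 0.07 in TaVAPOE, -0.14 and -0.20 on wild-type arrays and -1.55 and -0.58 on mutant arrays. It held against DER1, with 2.68 and 2.65 in TaVAPOE, -0.19 and 1.98 on wild-type arrays and -3.06 and 1.57 on mutant arrays. The lowest values were on the discordant arrays, and DER1 read on mutant replicate 1 a value that 8 probe sets shared. Against ERDJ3B the groups overlapped, since TaVAPOE gave 1.87 and 1.52 and wild-type replicate 1 gave 1.56. The gap between the means of TaVAPOE and the wild type was 0.89 log units against BZIP28, 0.63 against BZIP17, 0.35 against CRT1B, 0.31 against ERDJ3B and 1.77 against DER1. Taken from wild-type replicate 2 alone, without the discordant array, it was 0.82 against BZIP28, 0.52 against BZIP17, 0.38 against CRT1B, 0.48 against ERDJ3B and 0.685 against DER1. An exact two-sided permutation test of 2 arrays against 2 cannot give a p below 0.333, so none of the 5 gaps can pass. All 5 gaps share BZIP60, whose TaVAPOE values already exceeded the other 4 arrays, as 13.6% of all probe sets did. The gaps are therefore not separate results, and the share over other pairs of genes was not computed. An unequal change between 2 genes does not say that either of them was constant.

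**Figure D3:**
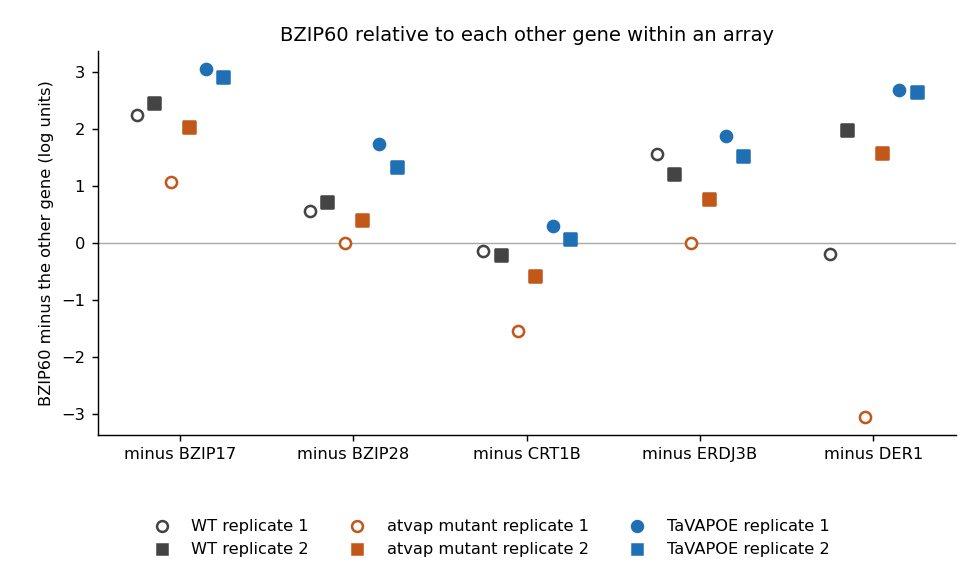
BZIP60 minus each of the other 5 genes on the same array, in log units (vertical axis), for the 6 arrays; circles are replicate 1, squares replicate 2, and open symbols the 2 discordant arrays. The TaVAPOE arrays are the highest in 4 of the 5 pairs, and against ERDJ3B the value of 1.56 on wild-type replicate 1 lies between the TaVAPOE values of 1.87 and 1.52. All 5 pairs share BZIP60, and the share over other pairs of genes was not computed.

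The low readings on the discordant arrays were shared by 5 of the 6 genes. Wild-type replicate 1 minus replicate 2 ran over these 5 genes from -2.44 (ERDJ3B) to -1.87 (BZIP17), while the median over all probe sets was -0.13. Mutant replicate 1 minus replicate 2 ran from -3.497 (BZIP60) to -2.53 (CRT1B), while the median over all probe sets was 0.09. The share of all probe sets with a larger absolute difference between replicates ran over these 5 genes from 5.56% (ERDJ3B) to 21.55% (BZIP17) in the wild type. In the mutant it ran from 4.64% (BZIP60) to 12.76% (CRT1B). DER1 differed by 0.08 between the wild-type arrays and by 1.13 between the mutant arrays. Within the TaVAPOE pair the 6 genes differed by 0.04 to 0.26 log units in size.

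Some of the readings on mutant replicate 1 are not values of their own. BZIP28 and ERDJ3B had there the same value, 2.444, equal to 6 decimals, and 397 probe sets of that array shared it. BZIP60 read 2.443 there, a value that no other probe set of the array had. The DER1 value of 5.50 on mutant replicate 1 was shared by 8 probe sets. A further value, 2.91, occurred on 451 probe sets of mutant replicate 1, whereas the most frequent value of any other array occurred on 41 to 159. On the other 5 arrays none of the 6 genes shared its value with more than 1 other probe set. The differences between replicates of BZIP28 and ERDJ3B in the mutant therefore rest on a tied value, and what produced the ties was not tested.

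The genes whose profile over the 6 arrays lay closest to each member, by the root mean square difference after centring, followed the discordant arrays in the same way. For BZIP60 they were AT3G02560 (0.131 log units) and AT5G52650 (0.134). AT3G02560 read 7.84 and 7.73 in TaVAPOE, against 7.13 on wild-type replicate 2 and 7.14 on mutant replicate 2, and 5.06 and 3.33 on the discordant arrays. For BZIP28 they were AT5G61670 (0.0464) and AT3G56360 (0.0692), for BZIP17 AT1G48900 (0.0859) and AT2G30050 (0.0979), for CRT1B AT3G08930 (0.057) and AT2G01720 (0.0868), and for ERDJ3B AT5G01750 (0.0387) and AT3G57880 (0.0963). DER1 lay closest to AT2G39690 (0.0788) and CYP71B16 (0.0842), which also peaked on mutant replicate 1 at 2.37 and 2.23. Pearson r over the 6 arrays was 0.99 or above for all 12 of these pairs. The pairs were picked as the closest over the same 6 arrays, so a high r is not a separate result. All 12 pairs share the same 2 discordant arrays, so the likeness describes mainly those.

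Of 48 other genes of ER folding, degradation and signalling that were listed, 9 had a named probe set of their own. The array may still read the others, since 8730 probe sets are unnamed here. None of the 9 passed in any of the 3 comparisons, over 6 arrays or over 4. Between TaVAPOE and the wild type 7 of the 9 were higher over 6 arrays, with a median of 0.23 log units, and 4 of the 9 over 4 arrays, with a median of -0.001. The shares of all probe sets that were higher were 51.6% and 49.3%. Between mutant and wild type 2 of the 9 were higher over 6 arrays and 7 over 4, with medians of -0.06 and 0.13. There 50.3% and 51% of all probe sets were higher. Between TaVAPOE and the mutant 7 of the 9 were higher over 6 arrays and 2 over 4, with medians of 0.30 and -0.23. The shares of all probe sets were 47.5% and 50.3%.

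S2P (AT4G20310), the protease that completes the release of BZIP28 and BZIP17, had both TaVAPOE arrays below the other 4, 1 of the 9 genes, where 9.1% of all probe sets did. That share is near the background and is not a result about S2P. Its TaVAPOE values were 2.15 and 1.74, against 2.49 and 2.74 on the wild-type and 2.68 and 2.496 on the mutant arrays. The S2P value of 1.74 was close to 1.66, the 20th percentile of all values. The difference from the wild type was -0.67 ± 0.46 log units over 6 arrays (limma adjusted p = 0.870) and -0.80 ± 0.25 over 4 (adjusted p = 0.193). S1P (AT5G19660), which makes the first cut, had TaVAPOE values of 3.12 and 2.998, wild-type values of 2.86 and 3.06, and mutant values of 2.67 and 3.19, with no separation between genotypes.

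CNX2 (AT5G07340), a calnexin that works beside calreticulin, differed from the wild type by 1.09 ± 0.71 log units in TaVAPOE. That difference came from 1.14 on wild-type replicate 1, since wild-type replicate 2 read 2.98 and TaVAPOE 3.19 and 3.10, and over 4 arrays it was 0.17 ± 0.19. UBC32 (AT3G17000), a ubiquitin-conjugating enzyme of ER-associated degradation, followed the pattern of the 5 low members, with 2.04 and 1.83 on the discordant arrays and 3.88 to 4.23 on the other 4. OS9 (AT5G35080), a lectin of the same pathway, read between 3.01 and 3.55 on all 6 arrays. The other derlin genes, DER2.1 (AT4G21810) and DER2.2 (AT4G04860), did not peak on mutant replicate 1 as DER1 did: they read 2.57 and 2.35 there, the lowest of their 6 values.

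**Figure D4:**
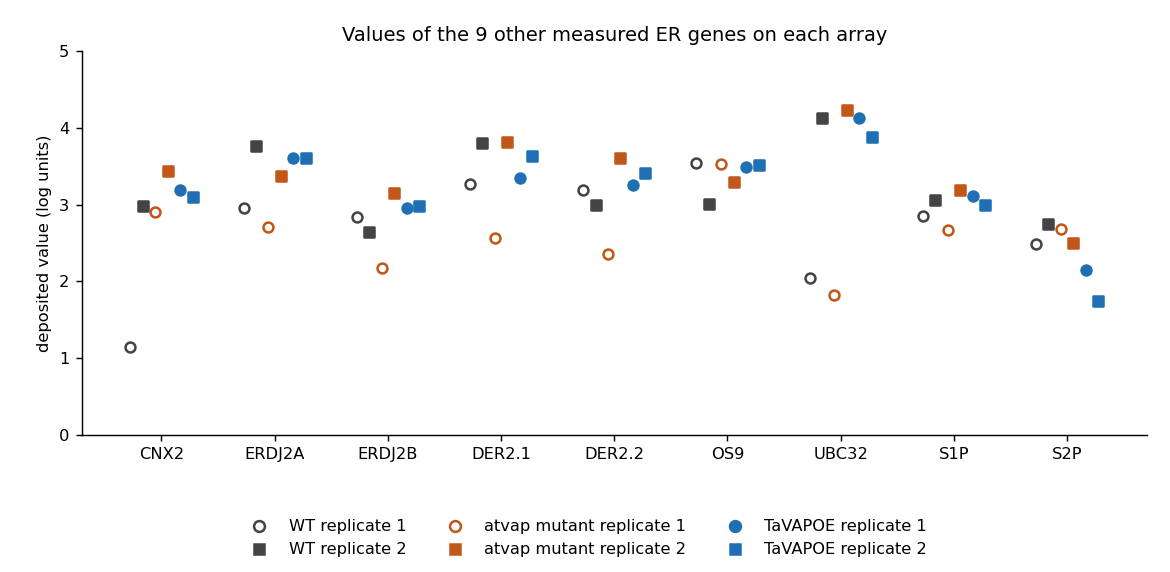
Deposited value in log units (vertical axis) of the 9 other measured ER genes on each array, ordered by folding, degradation and signalling; circles are replicate 1, squares replicate 2, and open symbols the 2 discordant arrays. S2P reads 2.15 and 1.74 in TaVAPOE against 2.49 to 2.74 on the other 4 arrays, and UBC32 is low only on the discordant arrays, at 2.04 and 1.83. Of all probe sets 9.1% read lower on both TaVAPOE arrays than on the other 4, so S2P as 1 of 9 is near the background.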

How the data were processed

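The authors deposited 1 table of probe set values, scores on a log scale of unstated base, for 22810 probe sets on 6 arrays. How they were summarised and normalized is not stated in the labels; Agilent Feature Extraction is the tool in the submitters' processing notes, without a version, although the arrays are Affymetrix ones and that tool reads another maker's arrays. Values were kept as deposited. The 64 control probe sets were left out. Probe sets were named through the platform annotation and the RefSeq table of TAIR10.1: 13513 had 1 gene, of which 13436 matched, 503 several, and 8730 are unnamed here. For DER1 the probe set with the highest mean stood for the gene.

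One linear model of all 6 arrays was fitted with limma 3.58.1 in R 4.3.3, with a mean per genotype, and the 3 comparisons were contrasts in it, with Benjamini-Hochberg adjustment over all 22746 probe sets and a threshold of 0.05. The tests were run on simulated data, whose settings and outcome are not given here. That run is not used as evidence of how the tests behave on the deposited values, with their discordant arrays and tied values. The number of arrays limits the precision, and what separates replicates is not stated beyond the word biological. The design row that named promoters and proteins was not used, since no sequences were used here.

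Named genes were the 6 members, the 2 genes most like each, and, of the other ER genes, the 4 with the smallest p between TaVAPOE and the wild type (CNX2, S2P, UBC32 and OS9). S1P, DER2.1 and DER2.2 were named after their values were seen. The members and lists were chosen with earlier results of these data known.

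Alternatives were leaving out each array, the 4 concordant arrays, array quality weights, a block for the replicate number, a fit to just the groups compared, moderation with a trend and robustly, a filter at the 40th percentile of the means, values raised to the 20th percentile, and centring on the median or quantile normalization. Quantile normalization of the 4 arrays was added after seeing the data.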

Additional observations from a re-analysis of the deposited data

How the results depend on the processing

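None of the 18 differences (6 genes in 3 comparisons) passed the threshold under any of 16 alternatives. Of the 288 values 264 had the direction of the 6-array fit, but many of these were fixed in advance. The filter, the replicate block, the fit to just the groups compared, the trend and robust moderation and the quality weights left each difference unchanged. So did leaving out an array of the genotype not compared. Of the 18 directions, 4 turned over the 4 concordant arrays and 5 with these quantile normalized. Over the 4 concordant arrays BZIP28 turned to 0.278 between mutant and wild type, and between TaVAPOE and the mutant BZIP17, BZIP28 and ERDJ3B turned to -0.067, -0.252 and -0.041; the cause was not tested beyond the 2 arrays left out. With those 4 arrays quantile normalized the values were 0.145 for BZIP28 between mutant and wild type, -0.090 for BZIP28 between TaVAPOE and the wild type, and -0.070, -0.234 and -0.009 for BZIP17, BZIP28 and ERDJ3B between TaVAPOE and the mutant. Quantile normalization of all 6 arrays gave -0.127 for BZIP17 between mutant and wild type and -0.547 for DER1 between TaVAPOE and the wild type; the cause was not tested. It also moved DER1 to 1.818 between mutant and wild type and -2.365 between TaVAPOE and the mutant, BZIP60 to 1.038, CRT1B to 0.665 and BZIP28 to 0.633 between TaVAPOE and the wild type, and CRT1B to 0.383 between TaVAPOE and the mutant. Between mutant and wild type it moved BZIP60 to -1.393, BZIP28 to -0.642, CRT1B to 0.282 and ERDJ3B to 0.068.

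Leaving out each array in turn gave, between mutant and wild type, -1.204 to 1.330 for BZIP17, -1.845 to 1.249 for BZIP28, -2.490 to 1.007 for BZIP60, -1.108 to 1.418 for CRT1B and -1.105 to 1.623 for ERDJ3B. Without wild-type replicate 1 or mutant replicate 2 the sign turned for BZIP17, CRT1B and ERDJ3B. Without wild-type replicate 2 or mutant replicate 1 it turned for BZIP28 and BZIP60. Between TaVAPOE and the mutant, leaving out each array gave -0.067 to 2.467 for BZIP17, -0.252 to 2.843 for BZIP28 and -0.041 to 2.687 for ERDJ3B, the low ends without mutant replicate 1. BZIP60 stayed higher in TaVAPOE, at 0.846 to 2.938 against the wild type and 0.885 to 4.382 against the mutant.

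Over all probe sets 0 passed in each comparison over 6 arrays. Between TaVAPOE and the wild type 9 passed over the 4 concordant arrays, 3 with array quality weights and 732 with the 4 arrays quantile normalized; between TaVAPOE and the mutant 15 and 206 passed over the 4 arrays without and with that normalization, and between mutant and wild type 4 passed with it. The 4-array fits take their spread from the TaVAPOE pair, so these counts assume that the single arrays vary as that pair does. The replicate number as a block changed no call (BZIP60 at 1.892 between TaVAPOE and the wild type, limma adjusted p = 0.727). It cannot change a difference, since each genotype has 1 array of each replicate number. The deviations of replicate 1 from the group mean correlated at 0.58 between wild type and mutant and at 0.0141 and 0.0884 with TaVAPOE, and the labels tie no numbers together.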
